A study of Homo sapiens with 4 samples.

Results

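Inflammatory chemokines are small secreted proteins that draw leukocytes along a concentration gradient. The data concern 10 of them in NUGC3 (an established line of human gastric cancer cells), with and without the arginine methyltransferase PRMT6. The members were taken by gene symbol: CCL2, CCL5, CCL20, CXCL1, CXCL2, CXCL3, CXCL5, CXCL6, CXCL8 (formerly IL8) and CXCL16. They were measured by 17 of the 54613 probe sets of a single-colour Affymetrix array, and all 10 are among the 19775 genes tested. The set was put together with earlier results of this same comparison in view, so the differences of its members are given as a description and without a test.

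Total RNA was measured on 4 arrays, 2 from the control, NUGC3 with wild-type PRMT6, and 2 from its PRMT6 knockout (PRMT6-KO). The knockout was made with a lentiviral vector, lentiCRISPR v2, carrying a guide against PRMT6, followed by puromycin and limiting dilution to clones. All cells are NUGC3, so both groups share its cancer genome. The labels do not state how many clones the knockout arrays represent, whether control cells carried a vector, or whether replicates were separate cultures. The p-values therefore rest on a spread between arrays that may be technical. PRMT6, read by its only probe set, was 7.66 on each control array and 6.87 and 6.91 on the knockout arrays (RMA log2 expression; limma adjusted p = 0.0502), which checks the labels only in part because an edit need not remove the transcript.

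Chemokines are named for the spacing of their first cysteines, adjacent in the CC family and separated by a single residue in the CXC family. CCL2 and CCL5 attract monocytes and T cells, the former through CCR2, and CCL20 attracts cells bearing CCR6. CXCL1, CXCL2, CXCL3, CXCL5, CXCL6 and CXCL8 attract neutrophils through CXCR2, and CXCL8 and CXCL6 also act on CXCR1. CXCL16 is made as a membrane protein and shed, and its receptor is CXCR6. In epithelial and carcinoma cells many of these genes are induced by interleukin 1 and tumour necrosis factor through the transcription factor NF-kappaB.

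The stretches before the start sites are shown because near-identical promoters stood beside unlike differences in level. The 120 bases before the gene start are from RefSeq (GRCh38.p14), 5′ to 3′ on the strand of the gene. Capitals mark matches to GGNNNTTCC, a loose form of the NF-kappaB motif, on either strand; the stricter form GGAATTTCC is one of its matches.
CXCL1: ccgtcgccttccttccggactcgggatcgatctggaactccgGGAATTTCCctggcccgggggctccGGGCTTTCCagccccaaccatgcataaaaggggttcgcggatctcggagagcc
CXCL2: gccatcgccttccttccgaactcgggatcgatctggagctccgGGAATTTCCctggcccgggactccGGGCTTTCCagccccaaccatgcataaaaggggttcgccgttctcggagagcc
CXCL3: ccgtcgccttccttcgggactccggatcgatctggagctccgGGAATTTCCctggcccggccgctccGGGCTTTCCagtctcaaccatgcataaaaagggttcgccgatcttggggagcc
CXCL5: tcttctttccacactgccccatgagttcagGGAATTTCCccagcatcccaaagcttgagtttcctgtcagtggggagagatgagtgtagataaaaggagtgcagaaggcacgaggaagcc
CXCL8: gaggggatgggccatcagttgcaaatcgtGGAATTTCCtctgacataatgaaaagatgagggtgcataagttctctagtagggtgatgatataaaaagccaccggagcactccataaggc
CCL20: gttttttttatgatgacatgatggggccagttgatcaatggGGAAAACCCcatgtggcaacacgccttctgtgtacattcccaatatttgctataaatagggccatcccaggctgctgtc

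These stretches lie at chr4:73869273-73869392 (plus strand) for CXCL1, chr4:74099196-74099315 (minus) for CXCL2 and chr4:74038690-74038809 (minus) for CXCL3. That of CXCL5 lies at chr4:73998678-73998797 (minus), that of CXCL8 at chr4:73740449-73740568 (plus) and that of CCL20 at chr2:227813722-227813841 (plus). Promoters of 7 of the 10 members were matched by symbol; CCL2, CCL5 and CXCL16 are named only. Over the 250 bases before the start, GGAATTTCC was present in 6 of the 7 (CXCL1, CXCL2, CXCL3, CXCL5, CXCL6 and CXCL8) and in 0.413% of 35116 promoters in the table. The loose form GGNNNTTCC, which every strict match also meets, was present in 7 of the 7 and in 17.1% of all promoters. CXCL1, CXCL2 and CXCL3 each held a further loose match 53 bases before the start, which CXCL5, CXCL6, CXCL8 and CCL20 lacked in this window. The strict motif began 78, 77 and 78 bases before the start in CXCL1, CXCL2 and CXCL3, and 90, 89 and 91 bases before it in CXCL5, CXCL6 and CXCL8. The AP-1 motif TGANTCA was found in CXCL8 alone among the 7 (6.57% of all promoters), and TTGCNNAA, a C/EBP motif, in CXCL2 alone (9.05%). A match is a run of letters and not a measured binding site, and lack of an exact match does not show that a site is absent. The CXCL8 stretch holds ttgcaaat, a single letter away from TTGCNNAA.

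In aligned pairs of these 120 bases, CXCL1 shared 113 (94.2%) with CXCL2 and 109 (90.8%) with CXCL3, and CXCL2 shared 108 (90.0%) with CXCL3. CXCL5 and CXCL6 shared 110 (91.7%). The other pairs shared 53.3% to 62.5%, a level that includes what gapped alignment gives to unrelated sequence. The first 3 genes had unlike differences in level, 0.05, -0.21 and -0.72 for CXCL1, CXCL2 and CXCL3 (log2, knockout minus control; SE 0.095, 0.098 and 0.077). Whether CXCL1 and CXCL2 differ from each other was not tested, and their gap is smaller than that of either from CXCL3. The brightest probe sets of CXCL2, CXCL5 and CXCL8 are of the x_at class, whose probes can also match other sequences.

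CCL2 and CCL5 were higher in the knockout cells. CCL2, the monocyte attractant, read 3.42 and 3.53 on the control arrays and 5.18 and 5.30 on the knockout arrays. Its groups lay far apart relative to the gap between replicates, with a log2 difference of 1.77 (SE 0.089), or 3.40-fold. These control values sat just above the lower quartile of their arrays (3.22 and 3.29). Expression above background is thus not established for CCL2 in control cells, and its fold is uncertain. CCL2 was read by a single probe set, 216598_s_at, of the class whose probes can match several related transcripts. In RNA of a whole culture, more cells that express a gene and more of its RNA per cell cannot be told apart.

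CCL5, a T cell and monocyte attractant, was bright in both groups. On its brightest probe set it read 9.47 and 9.29 in control and 10.38 and 10.46 in knockout cells, a log2 difference of 1.04 (SE 0.096), or 2.06-fold. Its other probe sets, 1405_i_at and 204655_at, gave 1.11 and 1.02. On each of the 3 probe sets the knockout arrays read above the control arrays, with no overlap.

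**Figure D1:**
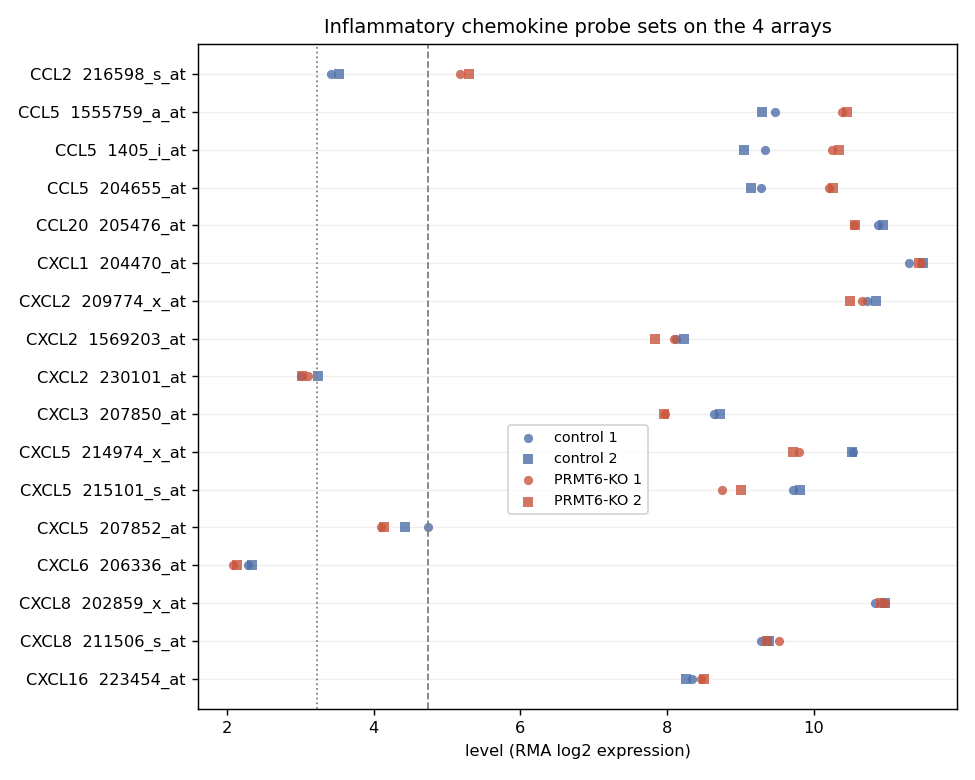
Level (RMA log2 expression, x axis) of the 17 probe sets of the 10 chemokines on each of the 4 arrays; circles and squares are replicates 1 and 2, blue control and red PRMT6-KO. Dotted and dashed lines are the lower quartile and the median of all probe sets, averaged over the arrays; CCL2 moves from near the dotted line to above the dashed one, and CXCL6 stays below the dotted line.

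CXCL5 and CXCL3, both neutrophil attractants, were lower in the knockout cells. CXCL5 read 10.53 and 10.52 on the control arrays and 9.79 and 9.71 on the knockout arrays. That is a log2 difference of -0.77 (SE 0.076), or 1.71-fold lower, on its brightest probe set, 214974_x_at. The groups were also apart on its other probe sets, with -0.89 on 215101_s_at and -0.46 on 207852_at, the last near or below the array median. CXCL3 read 8.64 and 8.73 in control and 7.97 and 7.96 in knockout cells, a log2 difference of -0.72 (SE 0.077), or 1.64-fold lower, on its only probe set.

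CCL20, which attracts CCR6-bearing lymphocytes and dendritic cells, differed less. It read 10.87 and 10.94 in control and 10.55 and 10.56 in knockout cells, a log2 difference of -0.36 (SE 0.075), with groups apart by more than the gap between replicates. CXCL2 read 10.73 and 10.85 in control and 10.66 and 10.49 in knockout cells, a log2 difference of -0.21 (SE 0.098). The nearest CXCL2 values of the groups were closer to each other than replicates were within either group. A second probe set of CXCL2 gave -0.21 as well, and its dimmest, at 3.12 in control, gave -0.06 with overlapping groups.

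CXCL1 and CXCL8, both bright, overlapped between the groups. CXCL1 read 11.30 and 11.48 in control and 11.45 and 11.43 in knockout cells, a log2 difference of 0.05 (SE 0.095). CXCL8 read 10.83 and 10.97 in control and 10.97 and 10.92 in knockout cells, a difference of 0.04 (SE 0.087), and its second probe set gave 0.11. Both differences were smaller than the gap between the 2 control arrays, 0.19 for CXCL1 and 0.14 for CXCL8, and their sign turned when control replicate 1 was left out, to -0.04 and -0.03.

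CXCL16, the transmembrane member, read 8.34 and 8.26 in control and 8.46 and 8.50 in knockout cells, a log2 difference of 0.18 (SE 0.078) with groups apart. CXCL6 read 2.29 and 2.34 in control and 2.08 and 2.14 in knockout cells. All 4 CXCL6 values lay below the lower quartile of their arrays, so its difference of -0.20 (SE 0.076) concerns signal that may be background.

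**Figure D2:**
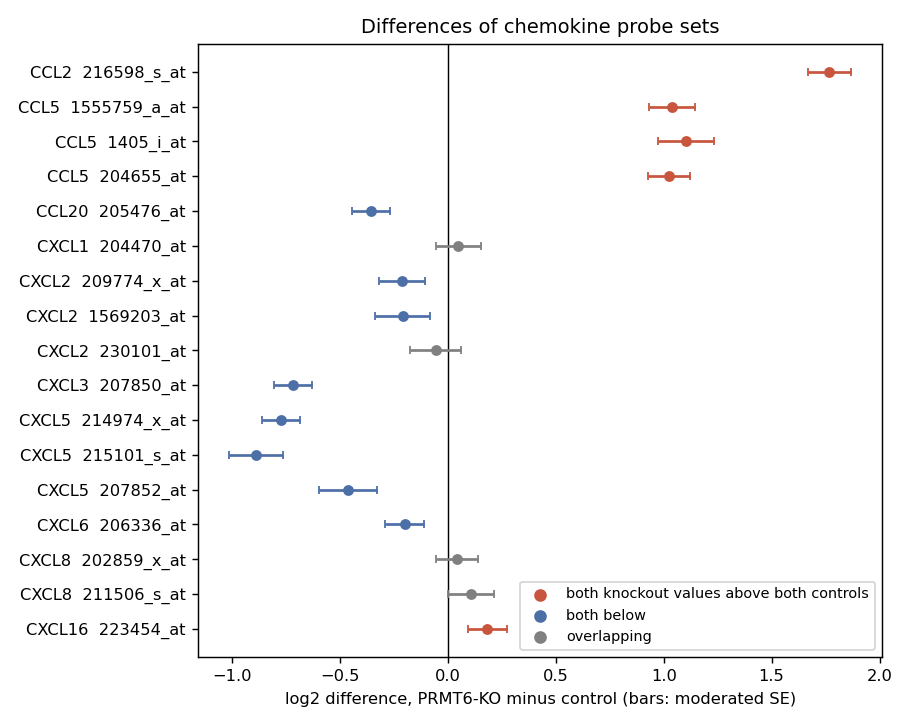
Log2 difference (PRMT6-KO minus control, x axis) of each chemokine probe set, with bars of 1 moderated SE from the fit of all probe sets; red, both knockout values above both controls; blue, both below; grey, overlapping. CCL2 and the 3 CCL5 probe sets lie at 1.02 to 1.77, CXCL3 and the 3 CXCL5 probe sets at -0.89 to -0.46.

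Over the 10 genes the median log2 difference was -0.08, against -0.01 over all genes tested, with 5 members positive and 5 negative. Groups did not overlap in 8 of the 10, 3 higher and 5 lower; among all genes they did not overlap in 43.3%, with 21.7% higher and 21.6% lower. CCL2 and CCL5, both higher, were the members past the limma threshold (adjusted p under 0.05), as were 0.475% of all genes, 0.359% higher and 0.116% lower. Nothing is read from these counts, since the members were chosen with the comparison known. The whole comparison called 94 genes, of which 71 were higher (75.5%; 63.6% after quantile or cyclic loess normalization). Without any one array no gene passed, CCL2 and CCL5 included (limma; 954 to 4892 genes at an unadjusted p under 0.05). The 2 arrays per group allow no exact permutation p below 0.333.

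The CXC members other than CXCL16 lie together at 4q13. In chromosome order the members there are CXCL8, CXCL6, CXCL1, CXCL5, CXCL3 and CXCL2. The brighter members on the side of CXCL8 gave 0.04 (CXCL8) and 0.05 (CXCL1), and those on the side of CXCL2 gave -0.77 (CXCL5), -0.72 (CXCL3) and -0.21 (CXCL2). MTHFD2L, a mitochondrial folate enzyme gene and the next measured gene after CXCL2, read 8.52 and 8.60 in control and 8.01 and 8.07 in knockout cells. Its difference was -0.52 (SE 0.079, limma adjusted p = 0.113), so it did not pass; its 7 dimmer probe sets gave -0.56 to 0.21.

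The platelet chemokines between CXCL6 and CXCL5 were dim or near the array median. PF4V1, PF4 and PPBP gave 0.13, 0.01 and -0.36 without passing, at control means of 1.98, 4.74 and 2.67. On the far flanks, EREG and BTC, ligands of the epidermal growth factor receptor family, gave -0.25 and 0.96 (limma adjusted p = 0.559 and 0.148). BTC read 4.74 and 4.27 in control on that probe set, and its other probe set gave 0.48. The mean of the EREG probe sets gave -0.11. RASSF6, a RAS-association protein, and ANKRD17, an ankyrin repeat protein, gave 0.03 and 0.12, and the liver genes ALB, AFP and AFM gave 0.12, -0.14 and -0.14. Of the 8 measured genes of the flank list 0 passed in either direction, and 2 had an unadjusted p under 0.05 (limma).

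**Figure D3:**
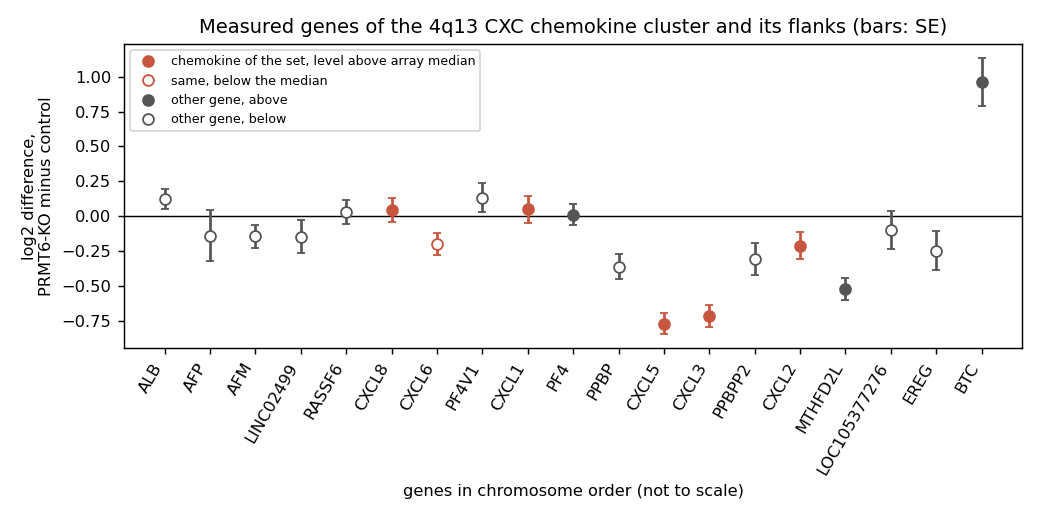
Log2 difference (PRMT6-KO minus control, y axis) with bars of 1 SE for the 19 measured genes from ALB to BTC in chromosome order, not to scale; red, chemokines of the set; grey, other genes; hollow, mean level below the array median. CXCL5, CXCL3, CXCL2 and MTHFD2L lie below 0, while CXCL8 and CXCL1 lie within 1 SE of it.

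Genes of the same pathway were counted with limma from lists grouped by role; beside a count of 0, the number at an unadjusted p under 0.05 is given, and over all genes tested it was 2363 of 19775. Of 17 other CC chemokines 0 passed in either direction (3 unadjusted), with a median difference of -0.04. CCL28, a chemokine of mucosal epithelia, came closest at 0.90 (SE 0.089, limma adjusted p = 0.0529), reading 5.56 and 5.41 in control and 6.36 and 6.41 in knockout cells; its other probe sets gave 0.58 and 0.35. CCL7, a monocyte attractant encoded beside CCL2, was dim in both groups and gave -0.44 (adjusted p = 0.407).

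Of 12 other CXC, C and CX3C chemokines 0 passed (4 unadjusted), with a median of 0.02. CXCL10, an interferon-inducible T cell attractant, read 7.22 and 6.95 in control and 8.10 and 8.34 in knockout cells. Its difference was 1.14 (SE 0.14, limma adjusted p = 0.0756), with groups apart. CXCL12, the ligand of CXCR4, gave 1.45 on its brighter probe set (SE 0.18, adjusted p = 0.0797), from a dim control mean of 3.62, and 0.15 on the other.

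Chemokine receptors, those of the members and of other chemokines, were mostly dim, with 10 of 16 below the median probe set. Of 16 receptors 0 passed (3 unadjusted), with a median difference of 0.04 and a median control level of 4.18, below the median of all probe sets on each array (4.73 to 4.77). CCR10, a receptor of CCL28, gave 0.51 and CCR1, a receptor of CCL5, gave 0.28 (limma adjusted p = 0.228 and 0.268). CCR2 gave -0.09, at 3.84 and 3.95 on the control arrays, and CXCR2 read 2.14 and 2.37 against 2.39 and 2.64. CXCR1 and CXCR6 lay above the array median. CXCR1 read 6.37 and 6.38 in control and 6.22 and 6.26 in knockout cells, a difference of -0.13 (limma adjusted p = 0.549). CXCR6, on its brighter probe set, read 5.12 and 5.00 against 4.93 and 4.90, a difference of -0.14 (limma adjusted p = 0.572). Of the 5 atypical receptors, which bind chemokines without classical signalling, 0 passed (1 unadjusted). ACKR3, which binds CXCL12, gave 0.78 and ACKR1 gave -0.50 (adjusted p = 0.196 and 0.597), both at low levels. The other probe sets of ACKR3 gave 0.15 and -0.14, and the mean of its probe sets 0.26. ACKR1 read 3.86 and 4.77 in control, and its difference was -0.05 without control replicate 2 and -0.95 without control replicate 1.

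Among 27 inducing cytokines, their receptors and adaptors, 1 passed as lower and 0 as higher, and 8 had an unadjusted p under 0.05 (limma). Over all genes 0.475% passed. IL1B, interleukin 1 beta, read 11.33 and 11.23 in control and 10.17 and 10.27 in knockout cells, a difference of -1.06 (SE 0.085, limma adjusted p = 0.0355). Its second probe set gave -0.999. Neither IL1B probe set passed when all 54613 probe sets were fitted, where 0.148% passed (limma adjusted p = 0.0804 and 0.0796). The list's median was 0.00, with 14 positive and 13 negative genes.

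Of 19 NF-kappaB subunits, kinases and inhibitors 0 passed (6 unadjusted), with a median of 0.09. NFKBIA, the inhibitor that NF-kappaB itself induces, gave 0.36 and TNIP1, a partner of the A20 deubiquitinase, gave 0.34 (limma adjusted p = 0.191 and 0.252). Of 15 AP-1, C/EBP, IRF and STAT factors 0 passed (4 unadjusted), 11 were positive and the median was 0.12; IRF1, an interferon-induced activator, gave 0.54 and IRF7 gave -0.36 (adjusted p = 0.0886 and 0.199). Of 8 factors of mRNA decay and stability, which act on the short-lived transcripts of many chemokines, 0 passed (2 unadjusted). TIA1, a translational silencer, gave -0.31 and ZFP36L2, a decay factor, gave 0.43 (adjusted p = 0.225 and 0.246).

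Of 13 genes for shedding, trimming and surface anchoring 1 passed as higher and 0 as lower, against 0.475% of all genes in either direction. In this list 5 had an unadjusted p under 0.05 (limma), and the median was -0.11. SDC2, a syndecan whose heparan sulfate chains can hold chemokines at the cell surface, read 3.98 and 3.89 in control and 5.36 and 5.69 in knockout cells. Its difference was 1.59 (SE 0.13, limma adjusted p = 0.0422), from a dim control level, and its other probe sets gave 1.07 and 0.40. SDC2 did not pass when all probe sets were fitted (limma adjusted p = 0.0790). With the mean of its probe sets it gave 1.02 and did not pass either (adjusted p = 0.0833).

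**Figure D4:**
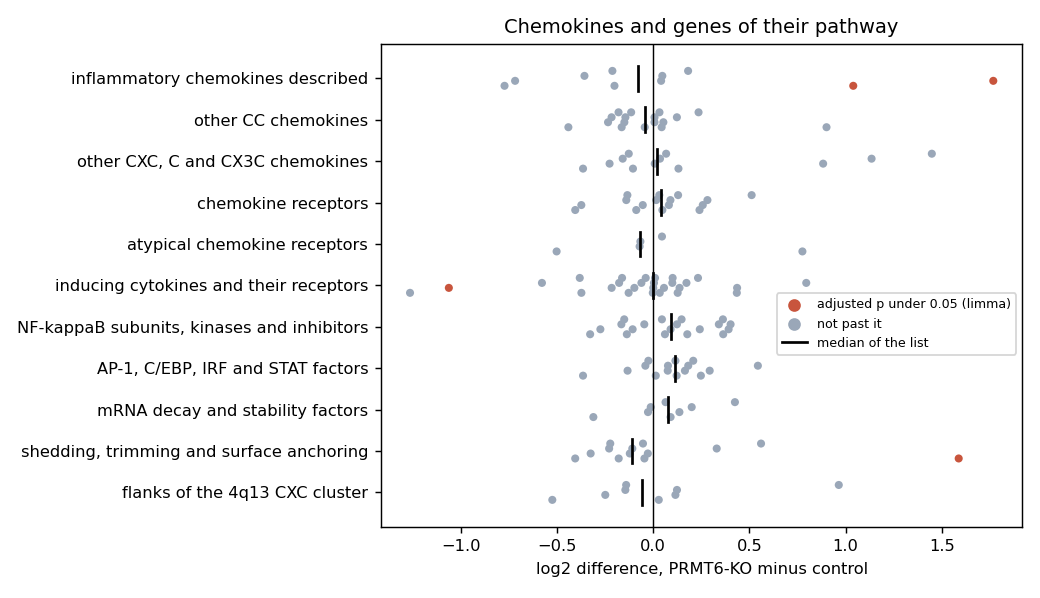
Log2 difference (PRMT6-KO minus control, x axis) of each measured gene in the chemokine set and in 10 lists of related genes, 1 point a gene and a black line at the list's median; red points passed limma's adjusted p of 0.05. Apart from CCL2 and CCL5, the red points are SDC2 at 1.59 and IL1B at -1.06.

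Markers of leukocytes, which make CCL2 and CCL5 in tissue, were counted beside these results. Of 15 leukocyte markers 0 passed (2 unadjusted), with a median difference of -0.06, and their summed log2 level was 72.2 and 73.5 on the control arrays and 71.8 and 72.9 on the knockout arrays. PTPRC (CD45), the defining leukocyte marker, read 2.65 and 2.89 in control and 2.47 on both knockout arrays, below the lower quartile of each array. Other markers of that list were bright. CORO1A, an actin-binding protein, read 8.76 and 8.64 in control and 9.23 and 9.22 in knockout cells, a difference of 0.52 (limma adjusted p = 0.120) with the smallest p of the list. LCP1, an actin bundler, read 10.65 and 10.71 against 10.65 and 10.78. The part of leukocyte genes in the CCL2 and CCL5 differences was not tested. Of 10 fibroblast and 8 endothelial markers 0 passed (1 and 0 unadjusted), with summed levels of 42.9 to 46.3 and 32.7 to 35.2 in control, and 43.2 to 43.5 and 32.9 to 33.3 in knockout cells. The 10 carcinoma markers were bright (median control level 11.1) and 0 passed (3 unadjusted).

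Genes with the array profile most like that of each leading member were found by the root mean square difference of centred values over the 4 arrays. For CCL2 these were TMEM80, TDRD5 and FKBP5 (0.050, 0.054 and 0.091), which differed by 1.82, 1.67 and 1.64. For CCL5 they were JPH1, FGFBP1 and KANK1 (0.020, 0.032 and 0.035), with 41 genes within 0.1. For CXCL5 they were NRIP1, INSIG2 and BAZ1A (0.031, 0.034 and 0.035), with 50 genes within 0.1. With 4 arrays in 2 groups, such likeness is mostly an equal difference between the groups. It also rests on the brightest probe set of each gene. With the mean of all probe sets TMEM80, TDRD5 and FKBP5 gave 0.80, 1.675 and 1.36. JPH1, FGFBP1 and KANK1 then gave 0.71, 0.99 and 0.34, and NRIP1, INSIG2 and BAZ1A gave -0.56, -0.71 and -0.87.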

How the data were processed

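Per the submitters' processing notes, the authors used RMA and affy; the deposited values are its log2 expression levels, 1 per probe set and array. Versions and settings were not stated. RMA usually corrects background, gives arrays a common distribution and summarises probes, which removes a shift common to most transcripts and compresses the folds of dim probe sets. Arrays have no read depth; their number limits the precision.

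Platform symbols (1 symbol for 41091 probe sets, several for 1801, none for 11721) were matched by gene ID to the GRCh38.p14 gene table, which changed 0 symbols. Each gene was represented by its probe set with the highest mean, and every probe set of the members is given. Knockout and control were compared with limma 3.58.1 (R 4.3.3; lmFit and eBayes, group as the only term, two-sided, Benjamini-Hochberg over all 19775 genes). The steps were tested on simulated data. The members and lists were chosen with earlier results of these data known. Named are all members, PRMT6, from each related list the genes that passed or otherwise the 2 with the smallest p, the 3 genes nearest in profile to CCL2, CCL5 and CXCL5, and the flanking genes at 4q13. PF4V1, PF4, PPBP, CCR2, CXCR1, CXCR2, CXCR6, PTPRC, CORO1A and LCP1 were added after their values were seen. Alternatives changed the normalization, the probe set rule, a filter on dim genes, the variance model, the replicate block and the arrays included. Promoters are from RefSeq.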

Additional observations from a re-analysis of the deposited data

How the results depend on the processing

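The numbers of calls depended on the processing, while the log2 differences of CCL2 (1.71 to 1.82), CCL5 (0.95 to 1.13), CXCL5 (-0.81 to -0.71), CXCL3 (-0.76 to -0.67) and CCL20 (-0.39 to -0.32) kept their direction in all alternatives run. Few of the alternatives could have turned it. The variance model, the replicate block, the filter on dim genes and the fit of all probe sets leave a log2 difference unchanged. Leaving out 1 array cannot turn groups that do not overlap, as in these genes. The kept direction is therefore a weak check. Against 94 genes, 2 chemokines of the set and 2 other pathway genes, quantile normalization called 195, 4 and 5 and cyclic loess 231, 4 and 5, with CXCL3 and CXCL5 added to CCL2 and CCL5. Gene counts here are out of 19775 unless another base is given. Nothing is read from the counts of chemokines in any setting, since the members were chosen with the comparison known. With the mean of all probe sets 138 genes, 4 chemokines and 1 other pathway gene (IL1B, without SDC2) passed. Testing only the 9888 genes at or above the median level, against 19775 in the main fit, gave 527, 4 and 14. These counts are thus not on the same base as the others, and CCL2 and CXCL6 were not tested there. An intensity trend with robust estimation gave 835, 5 and 23, with CCL20 added. Fitting all probe sets gave 57, 1 (CCL2) and 0, with 1997 genes at an unadjusted p under 0.05 on their brightest probe set. With the replicate number as a block 0, 0 and 0 passed (limma; smallest adjusted p 0.0823, 1942 genes at an unadjusted p under 0.05). The numbers are not known to pair the arrays: deviations of equally numbered arrays correlated at -0.0665. Without any one array 0 genes, 0 chemokines and 0 other pathway genes passed (range 0 to 0 over the 4 arrays left out; limma, 954 to 4892 genes at an unadjusted p under 0.05), and a group left with 1 array is assumed to vary like the other. The cause of these differences was not tested. Signal near background limits CCL2 in control, CXCL6, and the dimmest probe sets of CXCL2 and CXCL5.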
